A study of Mus musculus with 3 samples.

Results

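Gene deserts are long stretches of chromosome without a protein-coding gene, and this account describes the regions inside them where tagged Bcl11a was mapped in mouse blood stem and progenitor cells. Peaks of 3 CUT&Tag libraries were merged into one region where at least 1 bp was common to them, and a region was kept when a peak of each of the 3 libraries contributed to it. Such a region is called a desert region here when its summit, the point of highest signal, lay over 1 kb from the ends of every annotated gene, outside every protein-coding gene and over 100 kb from the nearest end of one. By this rule 732 of 22987 regions shared by the 3 libraries were desert regions (3.18%). The rule used positions and the presence of peaks, not their strength.

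All 3 libraries belonged to a single group and were numbered 1 to 3 by the submitters. They were made from bone marrow LSK cells of knock-in mice whose Bcl11a protein starts with a 3xFlag tag, although the genotype label of every library reads wildtype. LSK cells carry no mature lineage markers and display Sca-1 and Kit, and the sort keeps stem cells together with several kinds of early progenitor. The sources used here give neither age nor sex, and nothing says that the libraries came from separate animals, so SDs and p-values measure only the spread between these libraries. Neither an untagged sample nor an input was used here, so signal left by the tagged protein and signal that would arise without it cannot be told apart.

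Bcl11a is a zinc finger transcription factor that recruits corepressor complexes to DNA, and it is best known for silencing fetal globin genes in red cell precursors and for its part in B cell development. In CUT&Tag an antibody brings a transposase to the protein on chromatin, and the enzyme cuts and tags the DNA beside it. Deserts are known to hold remote enhancers, often in clusters, which act over long distances on developmental genes at the desert's edge. Well-studied examples lie far from Myc and Sox9. A peak does not show which gene a region acts on, so genes are named below only as neighbours on the chromosome.

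The libraries held 36466 to 43469 peaks, with a median fold enrichment of 4.69 to 5.25. Fold enrichment is the signal at the summit over the local background of the same library, as the authors' peak caller gave it. The lists also fixed the number of fragments stacked at each summit, here called the pileup, whose median was 14, 18 and 20 fragments in libraries 1, 2 and 3. Library 1 was the shallowest, with a genome-wide background of 1.07 fragments per base against 1.41 and 1.95. Shared regions lay within 1 kb of an end of Kit, Cd34 and Flt3 but not of Ly6a or Cd48, which is 3 of 5 LSK markers. Of 12 markers of other blood cells and stroma 2 were marked (Cd79a and Klf1), and of all protein-coding genes 45.5%, so 3 of 5 is near the share of all genes. A peak at a gene end is not expression.

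The desert regions themselves could not be printed as sequence. Sequence was at hand for the genes at the edges of the fullest deserts, where 10 promoters held a shared region. As examples 4 of these are shown, chosen after their values were seen, because the deserts of these genes are described below. Each line gives the 250 bases before the start in RefSeq (GRCm38.p6), read towards the gene, with capitals marking any match on either strand to one of 5 short motifs. The motif of Bcl11a was searched as TGACCA and that of GATA factors as AGATAA. Runx factors were searched as TGTGGT, and a common E-box, bound by helix-loop-helix proteins, as CAGCTG. The motif of ETS factors was searched as GGAAGT.
Id2, chr12:25096093-25096342, minus strand: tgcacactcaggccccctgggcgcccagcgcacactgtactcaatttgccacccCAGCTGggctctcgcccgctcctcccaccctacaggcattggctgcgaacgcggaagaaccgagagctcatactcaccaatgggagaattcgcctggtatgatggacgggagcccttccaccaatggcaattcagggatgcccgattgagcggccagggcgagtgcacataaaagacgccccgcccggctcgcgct
Diras2, chr13:52530837-52531086, minus strand: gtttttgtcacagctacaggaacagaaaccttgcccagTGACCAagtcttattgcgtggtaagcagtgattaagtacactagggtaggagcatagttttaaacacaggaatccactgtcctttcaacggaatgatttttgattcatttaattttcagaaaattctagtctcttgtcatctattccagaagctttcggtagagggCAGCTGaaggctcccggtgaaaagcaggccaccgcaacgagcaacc
Tle3, chr9:61372116-61372365, plus strand: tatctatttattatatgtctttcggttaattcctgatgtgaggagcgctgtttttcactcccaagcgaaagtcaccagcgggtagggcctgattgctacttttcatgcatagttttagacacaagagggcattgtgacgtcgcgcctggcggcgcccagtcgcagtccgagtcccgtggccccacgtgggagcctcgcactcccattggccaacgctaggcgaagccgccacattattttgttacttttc
Jarid2, chr13:44730524-44730773, plus strand: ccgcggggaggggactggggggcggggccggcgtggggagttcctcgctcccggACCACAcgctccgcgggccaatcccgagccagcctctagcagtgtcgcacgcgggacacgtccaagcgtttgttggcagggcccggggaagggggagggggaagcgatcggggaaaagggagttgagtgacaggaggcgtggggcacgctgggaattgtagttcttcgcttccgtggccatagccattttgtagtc
Fold enrichment at the Id2 start was 7.80, 5.27 and 5.13 in libraries 1, 2 and 3. At the Diras2 start it was 6.94, 7.92 and 11.6. The Jarid2 start gave 9.03, 9.17 and 9.32, the closest agreement of the 4, and the Tle3 start 4.20, 5.58 and 4.38. Of these windows the one of Diras2 held TGACCA and CAGCTG, the one of Id2 held CAGCTG, that of Jarid2 held TGTGGT on the other strand, and that of Tle3 held none of the 5 motifs. Among 32851 RefSeq promoter windows of the same length, 11.4% held TGACCA, 9.99% AGATAA, 14.0% TGTGGT, 13.0% CAGCTG and 19.7% GGAAGT, so single matches are common. The GC content was 44.0% for Diras2 and 67.2% for Jarid2, around a median of 52.4% over all windows. Over all 10 promoters with a shared region, TGACCA was found in 3 (Diras2, Tomm20 and Serp2). Of the 19 genes at the edges of the 10 fullest deserts, 14 had a window that was used here, and 10 of the 14 had a shared region over it. The share was 31.1% of all 2150 such genes at the edge of a gap over 200 kb and 43.7% of all protein-coding genes with a window.

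Several deserts with members also hold microRNA genes, short RNAs that lower the output of messenger RNAs matched by their seed. There were 84 microRNA genes in 30 such deserts. Many of them lay in a single gap, between Rtl1 and Dio3, the nearest of these 224 kb from a desert region. MicroRNA genes in gaps without a desert region were not counted, so no share over all gaps is given. Of the 84, 10 lay within 50 kb of a desert region. The families below are shown because each has 2 genes among those 10, with the seed (bases 2 to 8) in capitals.
miR-29a-3p: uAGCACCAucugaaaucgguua
miR-29b-3p: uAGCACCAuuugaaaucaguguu
miR-221-3p: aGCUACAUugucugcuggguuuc
miR-222-3p: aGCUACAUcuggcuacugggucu
miR-30a-5p: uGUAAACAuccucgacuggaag
miR-30c-5p: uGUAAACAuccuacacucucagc
The first pair shares the seed AGCACCA, the second GCUACAU and the third GUAAACA. The nearest desert region to Mir29b-1 lay 9.20 kb away, in the desert between Klf14 and Mkln1, with fold enrichments of 7.72, 4.79 and 3.64. The one nearest to Mir30a lay 15.9 kb away with 7.68, 9.28 and 8.62. The one nearest to Mir222 lay 20.3 kb away with 7.25, 7.06 and 4.41. The first and last of these were weakest in library 3, and the region near Mir30a varied least.

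Desert regions were unevenly spread over the deserts. Between merged protein-coding genes there were 1670 gaps over 200 kb, the length needed to hold a desert region, and 330 of them held at least 1 (19.8%). Of these, 203 held 1 region, 58 held 2 and 69 held 3 or more, and the last group took 347 of the 732 regions. The 10 fullest gaps held 108 regions (14.8%) on 0.644% of the sequence that could hold one. At the other end, 148 of 214 gaps with over 1 Mb of such sequence held none, the longest empty gap running for 4420 kb. The remaining 66 desert regions lay outside all gaps, between the outermost protein-coding gene and the end of a chromosome.

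**Figure D1:**
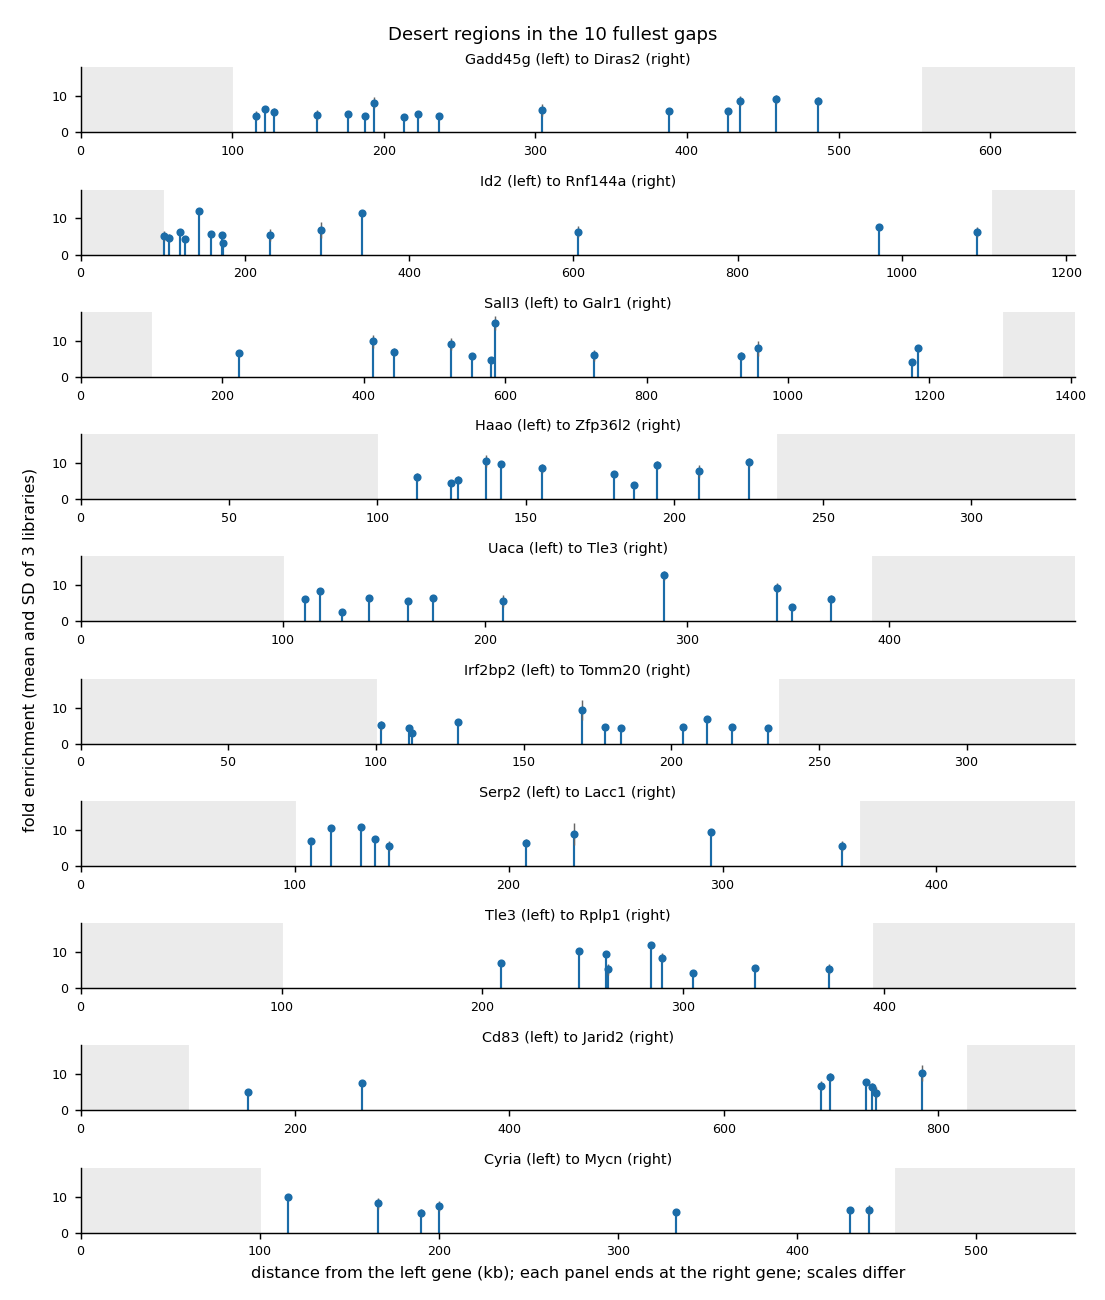
Desert regions in the 10 gaps that held most of them, the last chosen by summed fold enrichment from 3 gaps with 7 each: the horizontal axis is the distance in kb from the coding gene at the left edge, the height is fold enrichment (points and bars are the mean and SD of 3 libraries), and grey marks the 100 kb next to a coding gene, where no desert region can lie. Regions of the Gadd45g to Diras2 gap spread over 371 kb, those of Haao to Zfp36l2 over 112 kb.

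The fullest gap of all lay on chromosome 13 between Gadd45g, a stress-induced regulator of growth arrest, and Diras2, a small GTPase. It held 16 desert regions over 371 kb, and single libraries placed 19, 23 and 24 peak regions there. The strongest, at chr13:52306533-52307283, had fold enrichments of 7.84, 9.97 and 9.50 and pileups of 16, 23 and 27 fragments. The next, at chr13:52283346-52284065, had 7.67, 10.3 and 8.25. The weakest of the 16 averaged 4.17 ± 0.52 (SD, n = 3). A row of 10 of them lay 116 to 237 kb from Gadd45g, at averages of 4.17 to 8.19, and the strongest 3 stood nearer to Diras2.

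Next came the gap between Id2 and Rnf144a on chromosome 12, with 14 desert regions. Id2 is an inhibitor of E proteins that is needed for natural killer and innate lymphoid cells, and Rnf144a is a ubiquitin ligase. Of the 14, 8 lay between 101 and 174 kb from Id2. The strongest, chr12:25239820-25240727, had fold enrichments of 11.7, 12.0 and 12.7 and pileups of 42, 58 and 73. A second, chr12:25438464-25439081, lay 343 kb from Id2 with 10.9, 12.0 and 11.8. These 2 stood above the other 12, whose averages ran from 3.35 to 7.55. Single libraries placed 16, 15 and 19 peak regions in the gap, so nearly all of those of library 2 were shared.

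Tle3, a Groucho-family corepressor, had a well-filled gap on each side, the only gene of the 10 fullest gaps to border 2 of them. The gap towards Uaca held 11 desert regions and the gap towards Rplp1 held 9. On the Uaca side the strongest was chr9:61168747-61169474, 203 kb from Tle3, with fold enrichments of 14.1, 12.0 and 12.2 and pileups of 92, 96 and 125. On the Rplp1 side it was chr9:61702340-61702984, 284 kb from Tle3, with 12.3, 12.2 and 11.7 and pileups of 108, 148 and 162. The 9 regions on that side began 209 kb from Tle3, whereas those on the Uaca side reached to within 120.5 kb.

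The most crowded gap was that between Haao, an enzyme of tryptophan breakdown, and Zfp36l2, an RNA-binding protein that speeds decay of messages and is needed for blood stem cells. Its 11 desert regions lay within 112 kb, or 81.5 per Mb of sequence that could hold one, against 0.879 over all gaps. At chr17:83985081-83986152 the fold enrichment was 12.2, 10.3 and 9.07 and the pileup 244, 276 and 325 fragments. At chr17:83990273-83991291 it was 10.3, 9.76 and 8.99 with pileups of 213, 259 and 340. These pileups are over 10 times the desert medians of 18, 22 and 26, while the fold enrichment is not, since that is taken over the local background. The gap between Irf2bp2, a partner of Irf2 in repression, and Tomm20, a mitochondrial import receptor, came close, with 11 regions at 80.5 per Mb. Its members were weaker. The strongest, chr8:126763290-126764495, fell from 12.0 in library 1 to 9.69 and 6.51, with pileups of 53, 53 and 50.

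The gap between Serp2 and Lacc1 held 9 desert regions, the 2 strongest at chr14:76687607-76688674 (11.7, 10.7 and 10.3) and chr14:76673518-76674469 (11.4, 10.1 and 10.3). Serp2 is a stress-associated protein of the endoplasmic reticulum and Lacc1 an immune enzyme of macrophages. The gap between Cd83, an activation marker of dendritic cells, and Jarid2, a partner of Polycomb repressive complex 2, held 8. Of those, 6 lay nearer to Jarid2, between 143 and 237 kb from it, and the strongest was chr13:44587655-44588340 with 10.4, 12.6 and 8.26.

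Among genes of growth and survival, Mycn, a relative of Myc, had 7 desert regions in its gap with Cyria. The strongest, chr12:12496298-12497624, had 9.92, 10.3 and 9.33, and lay 116 kb from Cyria and 439 kb from Mycn. Myc itself, a driver of cell growth, had 6 in its gap with Gsdmc. Of these, 2 lay inside the noncoding gene Pvt1, 116 and 191 kb from Myc. The other 4 lay together 1621 to 1668 kb from Myc and 118 to 165 kb from Gsdmc, and no desert region lay between the 2 groups. The strongest of them, chr15:63647276-63648792, had 9.77, 9.15 and 9.45 with pileups of 55, 78 and 112. As background, a cluster of enhancers active in blood stem cells is known far downstream of mouse Myc.

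Ccnd2, the D-type cyclin that starts the cell cycle in many blood cells, had 6 desert regions in its gap with Parp11, on 94.6 kb of eligible sequence. The highest, chr6:127253740-127254762, lay 102 kb from Ccnd2 with 10.6, 11.0 and 6.76, lowest in library 3. Bcl2l11, the gene of the death-promoting protein Bim, had 6 in its gap with Spdye4c. Of these, 4 lay inside Morrbid, a noncoding RNA gene known to repress Bcl2l11 in short-lived myeloid cells, with averages of 3.89 to 6.14. The strongest of the 6, chr2:128294444-128295426, lay just outside Morrbid, 3.63 kb from its end, with 10.1, 12.0 and 12.7 and pileups of 62, 100 and 133.

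Of the stem cell transcription factors, Sox4 had 7 desert regions in its gap with Prl5a1. Of these, 6 lay inside the noncoding gene 2610307P16Rik, which fills much of that gap. The strongest, chr13:28512494-28513351, had 10.6, 14.4 and 11.3 with pileups of 38, 77 and 68, more than 2 times the average of every other region of the gap. Runx1, a factor needed for the first blood stem cells, had 5, from 102 to 467 kb away, in its gap with Setd4. They were of middling strength, with averages of 4.45 to 7.34, and the highest was chr16:93152265-93153548 with 8.75, 5.93 and 7.33. Among lineage factors, Foxo1, needed in B cell development, had 5, led by chr3:52877975-52878704 with 10.3, 10.4 and 9.61.

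A few further genes were picked after their values were seen, because they bear on these cells. Kit, the stem cell factor receptor used in the sort, had 2 desert regions in its gap with Kdr, at 6.47, 5.60 and 5.01 and at 5.84, 6.78 and 3.91. Cxcr4, the receptor that holds stem cells in the marrow, had 4 in its gap with Thsd7b, the strongest 195 kb away with 9.48, 9.98 and 12.1. Meis1, a homeobox factor of stem cells, had 4 over the gaps on both its sides, 361 to 597 kb from it. Bcl11a itself had 2 in its gap with Fancl. One lay 124 kb from Bcl11a with 4.76, 5.06 and 4.78, and the other, with 20.8, 18.9 and 15.5, lay 2010 kb from Bcl11a and 203 kb from Fancl.

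The fullest gap next to a regulator of other tissues was that between Sall3, a zinc finger factor of limb and nerve development, and Galr1, a neuropeptide receptor. It held 12 desert regions over 959 kb. The strongest, chr18:81571552-81572601, had 16.8, 15.1 and 12.8 with pileups of 131, 169 and 170, the highest average (14.9) in any of the 10 fullest gaps. No shared region lay at either end of Sall3.

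Gene lists set these single cases beside other genes, though the lists were chosen with earlier results of these data known. Of all 2778 protein-coding genes at the edge of a gap over 200 kb, 22.9% bordered one with a desert region (637 genes). In the list of growth, cell cycle and survival genes it was 7 of 7, among them Mycn, Myc, Ccnd2 and Bcl2l11. It was 7 of 9 blood receptors and adhesion genes, 14 of 20 blood lineage transcription factors and 5 of 10 stem cell transcription factors. Among genes of other tissues it was 17 of 50 developmental transcription factors, 23 of 73 neuronal adhesion and synapse genes and 0 of 25 olfactory and vomeronasal receptor genes. These are counts without a test, and genes that share a gap share its regions.

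Since long gaps offer more room, the counts were also set against sequence. This does not remove gap length, because density also fell with distance from coding genes, from 1.75 per Mb at 100 to 200 kb to 0.218 beyond 500 kb. The median gap was 318 kb for receptors, 492 kb for growth genes and 1064 kb for neuronal genes. It was 656 kb for lineage, 710 kb for stem cell and 617 kb for developmental factors, against 417 kb over all genes. Densities at matched gap length were not computed. Gaps next to blood receptors and adhesion genes held 6.19 desert regions per Mb of eligible sequence and those next to growth and survival genes 8.63, against 0.879 over all gaps. The figures were 2.38 for lineage factors and 1.85 for stem cell factors. Of the 36 regions next to lineage factors, 14 lay in the gap of Id2 alone. Of the 19 next to stem cell factors, 7 lay beside Sox4 and 5 beside Runx1. For developmental factors of other tissues the density was 0.852 per Mb, and 12 of their 29 regions lay in the gap of Sall3 alone. Next to neuronal genes it was 0.175 per Mb, with 26 regions in 149 Mb. Not every blood gene had one, for Zfp521, Zeb2, Ikzf2, Mecom and Runx2 of the stem cell list bordered gaps without a desert region, as did Mef2c, Tox, Bach2, Foxp1, Prdm1 and Rora. When regions also had to lie over 100 kb from genes of every kind, 82 regions in 60 gaps were left. Of the growth genes 0 of 7 and of the stem cell factors 0 of 10 then bordered a gap with one. Without the top 1% of regions by fold enrichment, 310 gaps held a desert region. Next to them were 16 neuronal genes and 13 lineage factors, and the growth, receptor and stem cell counts were as before. The share over all bordering genes was not recomputed for these 2 settings, so the counts are not read as traits of the lists.

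**Figure D2:**
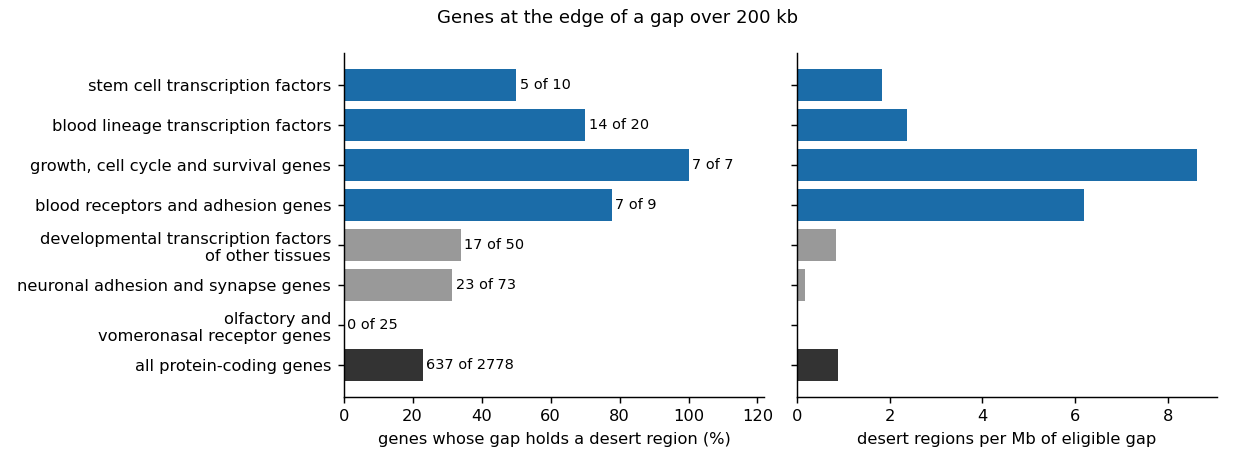
Protein-coding genes at the edge of a gap over 200 kb, by gene list: the left bars give the percentage whose gap held a desert region with the counts beside them, and the right bars the number of desert regions per Mb of eligible gap. The 4 lists of blood and growth genes (blue) reached 50% to 100%, all genes (dark) 22.9%. The lists were chosen with earlier results of these data known.

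The genes at the edge of filled deserts more often carried a shared region at their own ends. Of the 637 genes next to a gap with a desert region, 302 had a shared region within 1 kb of an end (47.4%). Where the gap held 5 or more it was 34 of 55 genes (61.8%). Where every bordering gap was empty it was 579 of 2141 (27.0%), and over all 2778 bordering genes it was 31.7%. Protein-coding genes as a whole, most of them not at the edge of a desert, reached 45.5%. All but Mycn of the 7 growth genes had such a region.

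Noncoding genes ran through many of the deserts. Of the 732 desert regions, 163 (22.3%) lay inside a noncoding gene, 155 of them in a long noncoding RNA gene, and the nearest gene other than a coding one was a long noncoding RNA gene for 488 (66.7%). The median distance to the nearest gene of any kind was 22.1 kb, against 176 kb to a coding gene, and 82 (11.2%) were over 100 kb from every gene. Genes with at least 3 desert regions inside were 2610307P16Rik (6), Gm35551 (5, in the Haao to Zfp36l2 gap), Gm36287 (4, beside Id2), Gm51680 (4, in the Uaca to Tle3 gap), Morrbid (4), 1700027J07Rik (3), Gm13986 (3), Gm31718 (3, in the Irf2bp2 to Tomm20 gap), Gm34276 (3, in the Cd83 to Jarid2 gap) and Igh (5). The last is the immunoglobulin heavy chain locus, whose gene segments are not listed as protein-coding, so that it counts as a desert under the rule. Averages over its 5 regions ran from 3.89 to 8.67.

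Shared regions became sparser with distance from coding genes, and desert regions were the tail of that decline. At 1 to 10 kb from a coding gene there were 8.46 shared regions per Mb of sequence outside coding genes, with the stretches beyond the outermost coding genes left out. The density was 3.12 at 50 to 100 kb, then within the deserts 1.75 at 100 to 200 kb, 0.732 at 200 to 500 kb and 0.218 beyond 500 kb, which is 38.7 times lower than at 1 to 10 kb. Counting the peak regions of each library on its own, the same ratio was 15.6, 25.6 and 24.2. The fall was thus steeper for shared regions than for those of any single library. Most desert regions were not remote, for 428 (58.5%) lay under 200 kb from a coding gene and 52 over 500 kb. No account was taken of unassembled sequence inside gaps.

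**Figure D3:**
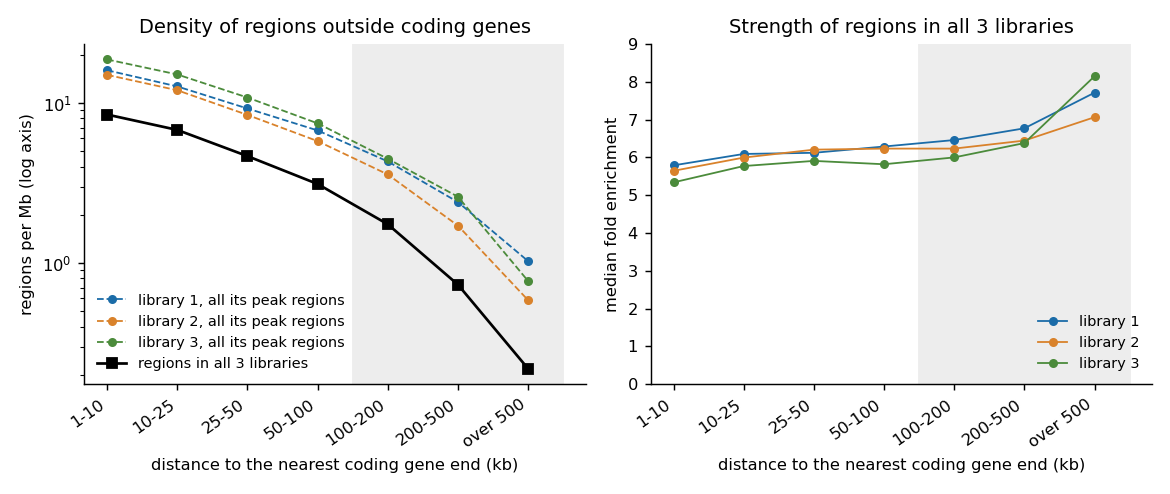
Shared regions outside coding genes by distance from the nearest coding gene end in kb, deserts shaded: the left panel gives regions per Mb on a log axis for each library alone and for regions in all 3, and the right panel the median fold enrichment in each library. Density of shared regions fell from 8.46 to 0.218 per Mb while the median fold enrichment was higher beyond 500 kb than at 1 to 10 kb in all 3 libraries. The right panel covers only shared regions, which were 30.5% of joined regions at 1 to 10 kb and 12.9% beyond 500 kb.

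Where desert regions occurred they were about as strong as other distal ones. Their median fold enrichment was 6.50, 6.28 and 6.11 in libraries 1, 2 and 3, against 6.02, 5.92 and 5.64 for regions outside genes within 100 kb of a coding gene. The log2 difference was +0.10 ± 0.015 (SD, n = 3 libraries) and positive in 3 of 3. Over regions inside coding genes the log2 difference was +0.15 ± 0.02, and against coding gene ends, with medians of 7.20, 7.48 and 6.96, it was -0.20 ± 0.05. With 3 libraries the exact sign-flip permutation test (two-sided) cannot give a p under 0.25, which is what it gave for each of these. The pileup, taken over the genome-wide background of the library, did not bear out the 2 positive differences. On that scale the log2 difference was -0.02 ± 0.03 from nearby intergenic regions (exact p = 1) and -0.10 ± 0.05 from regions inside coding genes (exact p = 0.25). Against coding gene ends it was -0.45 ± 0.09. Among regions of at least 2 libraries, the log2 difference in fold enrichment from nearby intergenic regions was +0.05 ± 0.04.

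Median peak widths in desert regions were 420.5, 486.5 and 526.5 bp, against 417, 505 and 567.5 bp for nearby intergenic regions. The difference was -18.7 ± 22.3 bp (exact p = 0.5), within its own spread. Over the 732 regions the median SD of fold enrichment across libraries was 14.7% of the mean, and the summits of the 3 libraries lay within 100 bp of each other in 356 (48.6%). Across desert regions the fold enrichments of 2 libraries had a Spearman correlation of 0.75 to 0.79, given as a description because the regions share libraries and depth.

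Peaks in deserts recurred less often across libraries than peaks elsewhere. Of all 60816 joined regions 37.8% had a peak of all 3 libraries, but in deserts it was 732 of 3607 (20.3%), while 2351 appeared in 1 library. Of the desert regions seen in library 1, 36.1% were shared by all 3, with 47.8% for library 2 and 35.9% for library 3. For nearby intergenic regions the shares were 51.8%, 56.1% and 44.5%, a difference of -10.9 ± 4.1 percentage points that was negative in 3 of 3 libraries (exact p = 0.25, the smallest possible). Coding gene ends reached 80.8% ± 4.0. Strong desert peaks recurred far more often. In the top quartile of each library by q-value, 90.9%, 92.6% and 97.8% of desert regions were shared by all 3, against 96.5%, 97.8% and 97.7% of nearby intergenic ones (difference -3.5 ± 3.2, exact p = 0.5).

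**Figure D4:**
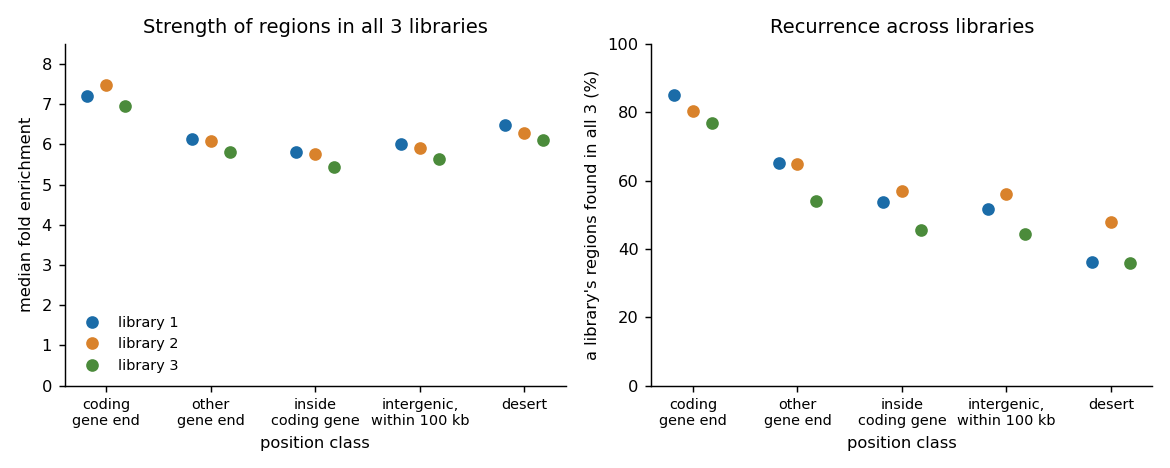
Position classes of regions, one point per library: the left panel gives the median fold enrichment of regions shared by all 3 libraries, and the right panel the percentage of a library's regions that all 3 shared. Desert regions lay between coding gene ends and the other classes in fold enrichment and lowest in recurrence, at 36.1%, 47.8% and 35.9%.

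The strongest desert regions were more often among the strongest of all shared regions than those of other classes were. By mean log2 fold enrichment, 38 of the 732 (5.19%) fell in the top 1% of all 22987 shared regions, against 1.44% of nearby intergenic regions, 0.789% of regions inside coding genes and 0.646% of those at coding gene ends. By pileup over background it was 53 desert regions (7.24%), against 1.61%, 0.634% and 0.447% of the same 3 classes. Regions beyond the outermost coding genes, described below, were kept in both rankings. The 10 strongest averaged 39.3 to 46.3, with the highest at chr12:93576971-93577279 between Gm40892 and Flrt2. That region had fold enrichments of 51.8, 45.2 and 41.7 and pileups of 927, 998 and 1286 fragments. The 9 others, in falling order, began at chr12:3109872, chr19:61331278, chr2:57629489, chr1:195371546, chr13:110744023, chr18:85697926, chrY:4036623, chrX:170880924 and chr14:86198993. In each of the 10, fold enrichment was highest in library 1 and lowest in library 3. The highest fold enrichment of any peak was 51.8, 45.6 and 42.1 in libraries 1, 2 and 3. Their shortest peaks were 174, 199 and 221 bp. Whether the order within the 10 follows from these limits was not tested.

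The 38 were cut from a continuous range, the lowest averaging 17.1 and the highest of the other 694 averaging 16.1. Their median width was 365 bp, against 661.5 bp, and the 3 summits lay within a median of 11.5 bp, against 114. Only 3 of the 38 had another desert region within 25 kb, against 276 of 694. Pileup in library 3 over that in library 1 had a median of 1.12 in the 38 and 1.47 in the others, where the genome-wide backgrounds differed 1.82 times, and all 38 lay below that ratio, as did 529 of the 694. These traits were not particular to deserts. In the top 1% of nearby intergenic regions the median width was 451.5 bp, against 672 bp in the others, and the pileup ratio 1.12 against 1.52. Their part in the high values was not tested. Of the 38, 6 were in gaps with 3 or more desert regions and 6 beyond the outermost coding genes. Leaving out the top 1% of regions kept the direction of each difference from the other classes.

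**Figure D5:**
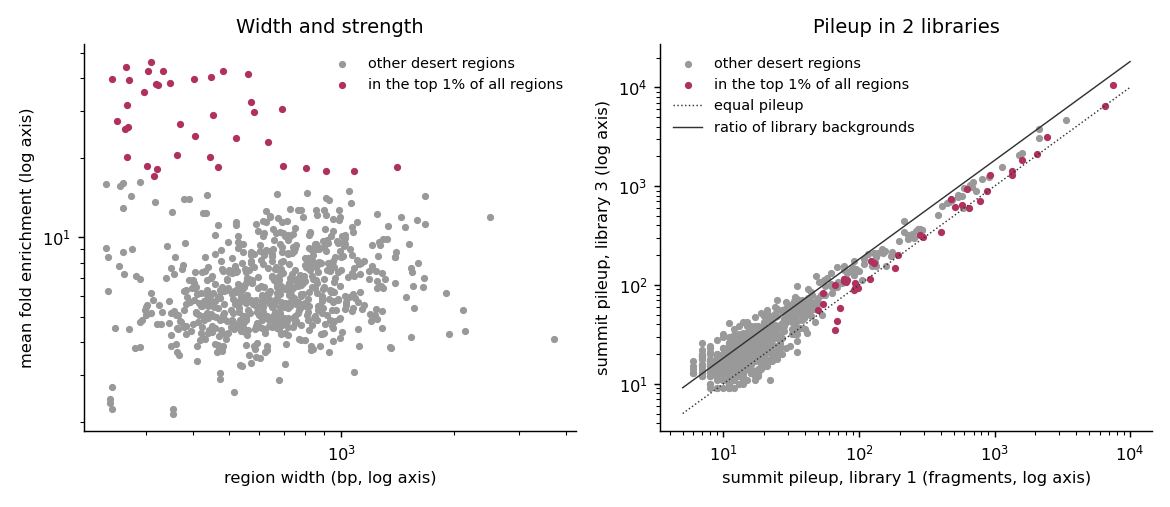
Each point is a desert region: the left panel sets region width in bp against mean fold enrichment, the right panel the summit pileup in fragments of library 1 against library 3, all on log axes. The 38 regions in the top 1% (red) were mostly narrow (median 365 bp), and their library 3 pileups lay below the line for the ratio of backgrounds (1.82), as did those of 529 of the other 694.

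The share of such regions grew with distance, from 2.72% of those at 100 to 200 kb to 21.3% of the 47 beyond 500 kb. The farthest of all, chr14:90911187-90911448, lay 2102 kb from a coding gene between Pcdh20 and Pcdh9, with fold enrichments of 27.8, 28.6 and 20.4 and pileups of 73, 83 and 59. The region at chr15:14524323-14524957, 1348 kb from Cdh6, had 23.4, 20.4 and 25.1, and that at chr12:97061428-97061879, 1141 kb from Galc, had 31.4, 27.2 and 28.7. The other 2 of the 5 farthest were lower. At chr5:60042718-60043154, 1766 kb out, the values were 13.4, 16.0 and 13.9, and at chr18:27687879-27688115, 1933 kb out, they were 6.77, 8.31 and 10.2. This last region lay between Celf4 and Pik3c3.

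Chromosome ends held a further set. Of the 66 desert regions beyond the outermost coding genes, 62 were on the low-numbered side, where the centromere of mouse autosomes lies, and 4 on the other. Of the 62, 7 were on the Y, which is not an autosome. On chromosome 9 there were 21 within 35.4 kb, with averages of 2.15 to 12.3. Each of the 4 on the far side (chromosomes 1, 14, 19 and X) was the last peak of its chromosome, with averages of 30.5 to 42.8. The median pileup of the 66 was 173.5, 164 and 227 fragments, against 18, 22 and 26 over all desert regions. These regions do not enter the counts by gap or gene list.

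Part of the desert regions lay close to another one. Of the 732, 279 (38.1%) had another within 25 kb, and without the 66 at chromosome ends it was 33.6%. The same share was not computed for other position classes. Regions with such a neighbour had lower median fold enrichments (5.84, 5.71 and 5.46) than those without (6.83, 6.88 and 6.45) but higher pileups (23, 27 and 35 against 16, 19 and 22). Of the 279, 55 were among the 66 at chromosome ends, whose median pileups were 173.5, 164 and 227. Neither contrast was recomputed without them. By chromosome, chromosome 13 held most (72, of which 70 in gaps, at 2.09 per Mb) and chromosome 9 had 1.68 per Mb, while the X had 0.216 and the Y 0.0427.

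Fold enrichments on both sides of the 100 kb limit ran over a similar range. The 3 desert regions nearest to a coding gene, 100.3 to 100.9 kb away, averaged 3.59, 6.88 and 11.2. The first of these, on chromosome 17, was among the 66 beyond the outermost coding genes, with pileups of 151, 149 and 212. The 3 shared regions just inside the limit, 99.6 to 99.8 kb away, averaged 6.56, 4.65 and 9.82.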

How the data were processed

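Peaks from 3 CUT&Tag libraries were analysed. Per the submitters' processing notes, reads were handled with Bowtie2, SAMtools and MACS2 on mm10. Versions and duplicate removal are not given in the sources used here. Each deposited list holds 1 library's peaks with fold enrichment (a ratio), −log10 p, −log10 q, a score (10 times −log10 q, not used) and summit position. All peaks passed q = 0.05.

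The pileup was solved from the deposited fold enrichment and −log10 p, and came out whole within 0.05 for 100% of peaks. Fold enrichment and pileup of a region are those of each library's peak with the highest fold enrichment there. Peak width and summit are those of each library's widest peak in the region. The highest fold enrichment of a library, times its shortest peak, came to 0.902 to 0.930 of 10 kb, the length over which MACS2 by default takes local background.

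Genes came from a RefSeq table of GRCm38.p6. Of these, 348 listed at scaffold coordinates were left out. Keeping them would give 728 desert regions. Motifs in desert regions were not searched, as no genome was used here.

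Medians were differenced within libraries and compared by an exact sign-flip permutation test (Python 3.11.15, numpy 2.4.6, pandas 2.3.3, scipy 1.17.1). Scripts were tested on simulated data. Named were the 10 strongest and 5 farthest members, the 10 fullest gaps, noncoding genes with 3 or more members and the list genes with most members. A result for 1 list gene is not reported here. Members and lists were chosen with earlier results of these data known.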

Additional observations from a re-analysis of the deposited data

Results flagged for a closer look

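Peaks were also called on the mitochondrial chromosome, which the comparisons leave out. There were 8 in library 1, 7 in library 2 and 7 in library 3, with highest fold enrichments of 4.81, 4.37 and 4.95. No control library was analysed here against which to set them.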

How the results depend on the processing

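With pileup over background in place of fold enrichment, the log2 difference of desert regions turned to -0.018 against nearby intergenic regions and -0.10 against regions inside coding genes. When each library was cut to its 10000 strongest peaks, the difference from coding gene ends turned to 0.049. The cause of either was not tested. That setting gave 224 desert regions in 125 gaps, a share in all libraries of 71.0%, a share with a neighbour of 29.0%, and 2 stem cell factors, 6 lineage factors, 3 blood receptors, 5 developmental factors and 11 neuronal genes next to one. With −log10 q of at least 5 the shares were 54.2% and 32.4%, with 9 lineage factors, 9 developmental factors and 14 neuronal genes. With at least 2 libraries there were 1256 desert regions (58.8% shared), 8 stem cell factors, 41 neuronal genes, and 15 and 16 regions in the gaps of Serp2 to Lacc1 and Tle3 to Rplp1. With over 50 kb there were 1411 in 629 gaps (43.0% with a neighbour). Shorter gaps then count, and 10 of 15 stem cell factors and 2 of 104 olfactory receptor genes bordered one with a desert region. With over 200 kb there were 304 in 159 gaps (28.6%). Fewer genes border gaps long enough for this limit, and it was 3 of 5 growth genes, 2 of 3 receptors and 7 of 34 developmental factors. The share over all bordering genes was not recomputed at either limit. With over 100 kb from any gene there were 82 in 60 gaps (23.2%), 0 stem cell factors, 3 lineage factors, 0 growth genes, 3 receptors, 3 developmental factors and 9 neuronal genes. Leaving out 1 library gave a share in all remaining libraries of 45.9% (library 2 left out) to 51.9% (library 1 left out). The share with a neighbour was 26.9% within 10 kb, 56.7% within 100 kb, and 33.6% without regions beyond the outermost coding genes. The last of these, leaving out the top 1%, and keeping genes at scaffold coordinates (1 olfactory gene) were chosen after seeing the data. Of 276 recomputed values 227 kept their direction or stayed close, 46 moved and 3 reversed. The planned sequence analysis and its other window were not run, and no planned setting gave a value for it. No paired analysis was possible because there was a single group, although position classes were compared within each library. The median pileup of desert regions was 18 fragments in library 1, and a region without a peak in a library was not detected at that library's depth. Detection against depth was not tested.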
